A study of Mus musculus with 6 samples.

Results

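The genes examined here make or accompany the enzymes that turn arachidonic acid into prostanoids and leukotrienes, and they were chosen by name as the rows of the count table whose symbol is Ptgs1, Ptgs2, Ptgs2os2, Ptges, Ptges2, Ptges3, Tbxas1, Alox5, Alox5ap or Ltc4s. All 10 were found among 49492 rows, and all 10 were among the 15741 genes with enough counts to be tested. Stranded mRNA sequencing was done on RAW264.7 cells, a transformed mouse macrophage line. The 2 groups were 3 libraries of cells transfected with an siRNA against Ep300, labelled as Ep300 silenced, and 3 libraries of cells transfected with a control siRNA, labelled as WT. Both siRNAs were used at 50 nM and cells were collected after 48 h. No inflammatory stimulus is named in the labels. Neither the siRNA sequences nor how many were used is given in the sources read here. Whether the libraries within a group are separate cultures is not stated in the labels. The p-values therefore describe the spread between these samples alone, and that spread may be technical.

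Prostanoid and leukotriene synthesis starts when a phospholipase A2 frees arachidonic acid from membrane lipid. The cyclooxygenases, Ptgs1 (constitutive in most tissues) and Ptgs2 (induced by inflammatory signals), convert it to prostaglandin H2, from which prostaglandin E synthases, thromboxane synthase and other terminal enzymes make the individual prostanoids. The lipoxygenase Alox5, helped by its activating protein Alox5ap, instead forms leukotriene A4, which Ltc4s joins to glutathione. Macrophages are a classical source of both families. The protein made from Ep300, p300, acetylates histones and other proteins and acts as a coactivator at many enhancers.

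Total counts lay between 29993567 and 45377510 per library. Ep300 mRNA averaged 55.0 ± 3.94 CPM in Ep300 siRNA libraries and 113.4 ± 6.01 CPM in control siRNA libraries (CPM, counts scaled to a common library size; SD, n = 3 each), 0.485 of the control level (log2 fold change −1.04 ± 0.07, SE; edgeR adjusted p = 3.62e-05). The 10 macrophage markers summed to between 11042 and 11991 CPM after Ep300 siRNA and between 9774 and 11426 CPM after control siRNA, a sum made up mostly of Lyz2. Csf1r, Adgre1 and Fcgr1 had log2 fold changes of −0.24, −0.23 and −0.36 and Cd14 one of 0.25, none past the adjusted threshold. The 37 markers of 9 other cell type groups, mast cells, neutrophils and platelets among them, summed to between 7.55 and 9.34 CPM after Ep300 siRNA and between 8.63 and 9.62 CPM after control siRNA. Of these 37 markers, 9 had no count in any library, among them Fcer1a, Mcpt4 and Tpsb2 of mast cells, and none of the 8 that could be tested passed edgeR or limma-voom (2 at an unadjusted p under 0.05 in edgeR). Of these 2, the platelet marker Pf4 was at 0.930 ± 0.262 CPM after Ep300 siRNA and 1.603 ± 0.0798 CPM after control siRNA (SD, n = 3 each). Every Ep300 siRNA library lay below every control (log2 fold change −0.78, edgeR adjusted p = 0.0924). The dendritic cell marker Zbtb46 went the other way, at 4.52 ± 0.694 and 3.51 ± 0.491 CPM for the same groups (log2 fold change 0.37, edgeR adjusted p = 0.212). Itga2b, the other platelet marker tested, was at a log2 fold change of 0.01 (edgeR adjusted p = 0.991). Of the macrophage markers none passed edgeR (4 at an unadjusted p under 0.05), and 2 passed DESeq2 and 2 limma-voom. Their part in the results below was not tested. One library, Ep300 siRNA replicate 1, stood apart in Gm42418, a gene over ribosomal RNA sequence, with 5819 CPM against 1326 to 2172 CPM in the other 5, so the calls of the 10 genes are also given without it.

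The 2 cyclooxygenase genes and the noncoding RNA beside Ptgs2 fell after Ep300 siRNA. None of the terminal synthases or leukotriene genes among the 10 passed the test. Relative to control siRNA, Ptgs1 was at 0.596, Ptgs2 at 0.603 and Ptgs2os2 at 0.437 of the level. Of the 10 genes, 3 fell (edgeR quasi-likelihood test, adjusted p under 0.05), none rose and 7 did not pass, and the same 3 passed at a threshold of 0.01. Over all genes tested 6.78% passed, 4.02% falling and 2.76% rising. Of the 10, 4 had an unadjusted p under 0.05, and for the same 4 every Ep300 siRNA library lay below every control siRNA library, an arrangement seen for 14.4% of all genes tested. The log2 fold change was negative for 8 of the 10, with a median of −0.25, against 50.8% negative and a median of −0.00 over all genes tested. The 10 genes were chosen with earlier results of these data known, so these shares describe them and do not test the set. In these bulk samples, fewer expressing cells and less RNA per cell cannot be told apart.

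**Figure D1:**
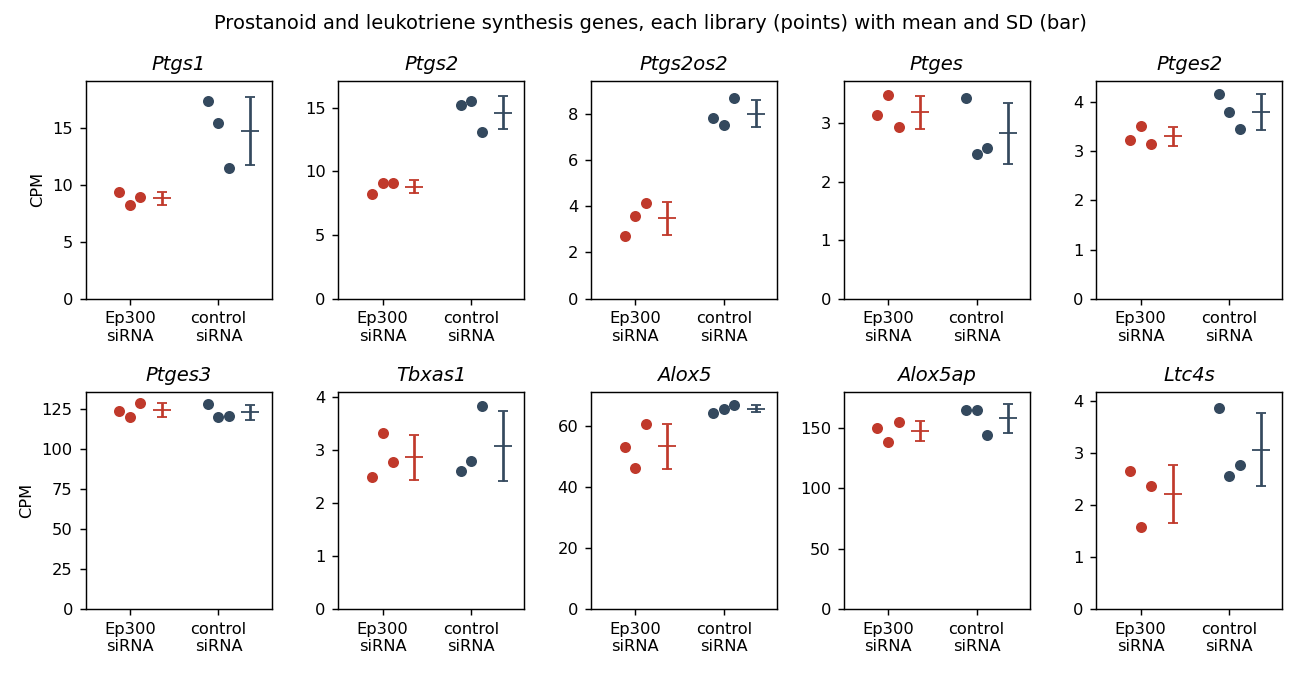
CPM (vertical axes, each from 0) of the 10 genes in the 3 Ep300 siRNA libraries (red, left) and the 3 control siRNA libraries (dark, right), with bars for the mean and SD. The groups are fully apart for Ptgs1, Ptgs2, Ptgs2os2 and Alox5, and overlap for the other 6.

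**Figure D2:**
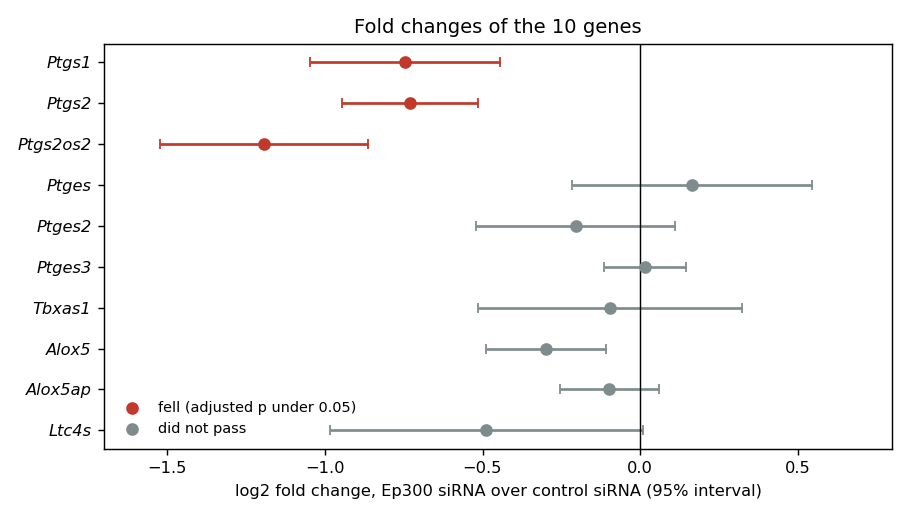
Log2 fold change of Ep300 siRNA over control siRNA (horizontal axis) with its 95% interval for each gene, in red where the edgeR adjusted p was under 0.05. Ptgs2os2 lies lowest at −1.19, Ptgs1 and Ptgs2 lie at −0.75 and −0.73, and the Alox5 interval ends at −0.11 without an adjusted p under the threshold.

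Ptgs2 encodes the inducible cyclooxygenase (GRCm38 chromosome 1, 150100031 to 150108227, plus strand). It had 8.22, 9.11 and 9.07 CPM across the Ep300 siRNA libraries, against 15.2, 15.5 and 13.1 CPM in the control siRNA libraries. The highest Ep300 siRNA library was thus well below the lowest control. The means were 8.80 ± 0.504 CPM after Ep300 siRNA and 14.6 ± 1.30 CPM after control siRNA (SD, n = 3 each), and the difference was −0.73 ± 0.10 on the log2 scale (SE; 95% interval −0.95 to −0.51; edgeR adjusted p = 0.00174). Of the genes tested, 2.24% had a lower log2 fold change. Without Ep300 siRNA replicate 1 the log2 fold change of Ptgs2 was −0.68 (edgeR adjusted p = 0.00592).

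Ptgs1 encodes the other cyclooxygenase (chromosome 2, 36230426 to 36252272, plus strand). Its level was 9.34, 8.24 and 8.90 CPM across the Ep300 siRNA libraries, against 17.4, 15.4 and 11.5 CPM in the control siRNA libraries. The Ep300 siRNA libraries lay close together, while the controls ranged more widely without reaching down to them. Means were 8.83 ± 0.553 CPM after Ep300 siRNA and 14.8 ± 2.98 CPM after control siRNA (SD, n = 3 each), with a log2 fold change of −0.75 ± 0.14 (SE; 95% interval −1.05 to −0.44; edgeR adjusted p = 0.00838). Without Ep300 siRNA replicate 1 it was −0.78 (edgeR adjusted p = 0.0146), and without control siRNA replicate 1, the highest library, −0.61 (edgeR adjusted p = 0.0203). An annotated locus on the opposite strand, Gm43621, shares 148 exonic bases with Ptgs1 and had 3.05 ± 0.196 CPM after Ep300 siRNA and 4.37 ± 0.984 CPM after control siRNA (SD, n = 3 each; edgeR adjusted p = 0.106). No label gives the strand setting of the counting, so reads of the shared bases cannot be assigned between the pair.

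Per kb of principal transcript, the ratio of Ptgs2 to Ptgs1 was 0.566, 0.711 and 0.656 across the Ep300 siRNA libraries, against 0.563, 0.649 and 0.734 in the control siRNA libraries. These ranges overlap almost wholly, and the difference in the log2 ratio was −0.01 (two-sided exact permutation p = 1). With 3 against 3 libraries that test cannot go below 0.10. The 95% intervals of the log2 fold changes span −0.95 to −0.51 for Ptgs2 and −1.05 to −0.44 for Ptgs1.

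Ptgs2os2, also known as lincRNA-Cox2, is a long noncoding RNA that lies 50.8 kb beyond the end of Ptgs2 on the other strand (chromosome 1, 150159043 to 150164948, minus strand). In mouse macrophages it is known as an inducible RNA that affects the expression of immune genes, Ptgs2 among them. It had 2.73, 3.57 and 4.13 CPM across the Ep300 siRNA libraries, against 7.83, 7.52 and 8.67 CPM in the control siRNA libraries. Counts behind these values were 80, 124 and 153 after Ep300 siRNA and 363, 270 and 317 after control siRNA. The groups are far apart, and no other of the 10 genes had a lower log2 fold change.

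Ptgs2os2 thus fell by a log2 fold change of −1.19 ± 0.15 (SE; 95% interval −1.52 to −0.86; edgeR adjusted p = 0.00119), and 0.47% of the genes tested had a lower one. Without Ep300 siRNA replicate 1, its lowest library, it was −1.04 (edgeR adjusted p = 0.00204). In GENCODE M21 no other gene overlaps Ptgs2os2, nor does any overlap Ptgs2. The ratio of Ptgs2os2 to Ptgs2 per kb was 0.847, 1.001 and 1.16 across the Ep300 siRNA libraries, against 1.32, 1.24 and 1.69 in the control siRNA libraries. Every Ep300 siRNA library thus held less of the noncoding RNA per Ptgs2 mRNA than any control. The difference in the log2 ratio was −0.49, at the smallest p that 3 against 3 libraries allow (two-sided exact permutation p = 0.10; adjusted p = 0.40 over the 8 pairs of genes compared). With any 1 library left out it ran from −0.60 to −0.36.

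Since Ptgs2 and Ptgs2os2 fell together, the sequences around their starts are shown, from 250 bases before to 30 bases after the RefSeq start (GRCm38.p6), with every match to 6 motifs in capitals. Ptgs2 is on the plus strand at chr1:150099781-150100060 and Ptgs2os2 on the minus strand at chr1:150164919-150165198.
Ptgs2: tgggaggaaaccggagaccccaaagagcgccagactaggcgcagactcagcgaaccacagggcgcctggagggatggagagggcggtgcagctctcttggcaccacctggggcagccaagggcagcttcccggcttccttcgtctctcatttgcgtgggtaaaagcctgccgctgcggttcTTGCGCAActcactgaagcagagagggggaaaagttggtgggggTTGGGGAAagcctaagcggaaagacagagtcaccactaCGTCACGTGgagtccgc
Ptgs2os2: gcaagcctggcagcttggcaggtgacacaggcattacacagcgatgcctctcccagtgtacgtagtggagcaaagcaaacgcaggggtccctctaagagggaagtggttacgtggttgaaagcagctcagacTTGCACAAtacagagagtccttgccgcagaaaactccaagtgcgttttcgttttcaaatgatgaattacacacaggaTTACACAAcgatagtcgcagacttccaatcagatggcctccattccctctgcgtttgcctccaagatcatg

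The motifs searched, on both strands, were the TATA box TATAAA, the cAMP response element half-site TGACG, the E-box CACGTG, the AP-1 site TGANTCA, the C/EBP site TTNNGNAA and the NF-kB site. In Ptgs2 the capitals mark a C/EBP match from −69 to −62 (TTGCGCAA), another from −25 to −18 (TTGGGGAA), and a half-site on the minus strand from 14 to 18 that shares 2 bases with an E-box from 17 to 22, positions counted from the start as 1. In Ptgs2os2 they mark C/EBP matches from −118 to −111 (TTGCACAA) and from −41 to −34 (TTACACAA), both on the minus strand of the gene. The C/EBP letters are common, found in 39.3% of 32841 RefSeq promoter windows of this length, against 19.9% for the half-site and 6.8% for the E-box. No NF-kB (GGGRNWYYCC), AP-1 or TATA letters are in either window. Most windows lack them, since 4.22%, 7.46% and 13.1% of the RefSeq windows hold them, in that order. Sequence outside the windows was not searched, so sites further away are not covered. All positions rest on the annotated RefSeq start, and where transcription begins in these cells was not tested. A start further downstream would shift every position and leave sequence next to it unsearched. Of the 10 genes 9 had a RefSeq promoter. Ptgs1, which fell as well, Alox5 and Ltc4s held no match to any of the 6 motifs. Matches were also present in genes that did not pass. Ptges2 held an E-box and a C/EBP site, Ptges a C/EBP site, Ptges3 a half-site, and Tbxas1 a TATA box and an AP-1 site. A link between these letters and the falls was not tested.

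Of 19 other annotated genes within 500 kb of Ptgs2, 17 had a row and 4 could be tested, and of those 4 only Ptgs2os2 passed. Pla2g4a, the cytosolic phospholipase A2 that frees arachidonic acid, lies 139 kb from Ptgs2 on its upstream side. It had 261.6, 264.2 and 276.7 CPM across the Ep300 siRNA libraries, against 270.8, 290.3 and 260.0 CPM in the control siRNA libraries. These values overlap, and the log2 fold change was −0.03 (95% interval −0.17 to 0.11; edgeR adjusted p = 0.814), an interval that lies wholly above that of Ptgs2. Tpr, a nuclear pore protein gene 285 kb downstream, was at −0.00 (95% interval −0.21 to 0.21; edgeR adjusted p = 0.995). Prg4, the lubricin gene next to it, was at 0.18 (95% interval −0.22 to 0.58; edgeR adjusted p = 0.625). Ptgs2os, the antisense transcript that begins just upstream of Ptgs2, had 0 counts in all 6 libraries, where 3 counts would be 0.0647 to 0.102 CPM. It was among the 13 untested rows, all of which held at most 30 counts in any library.

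**Figure D3:**
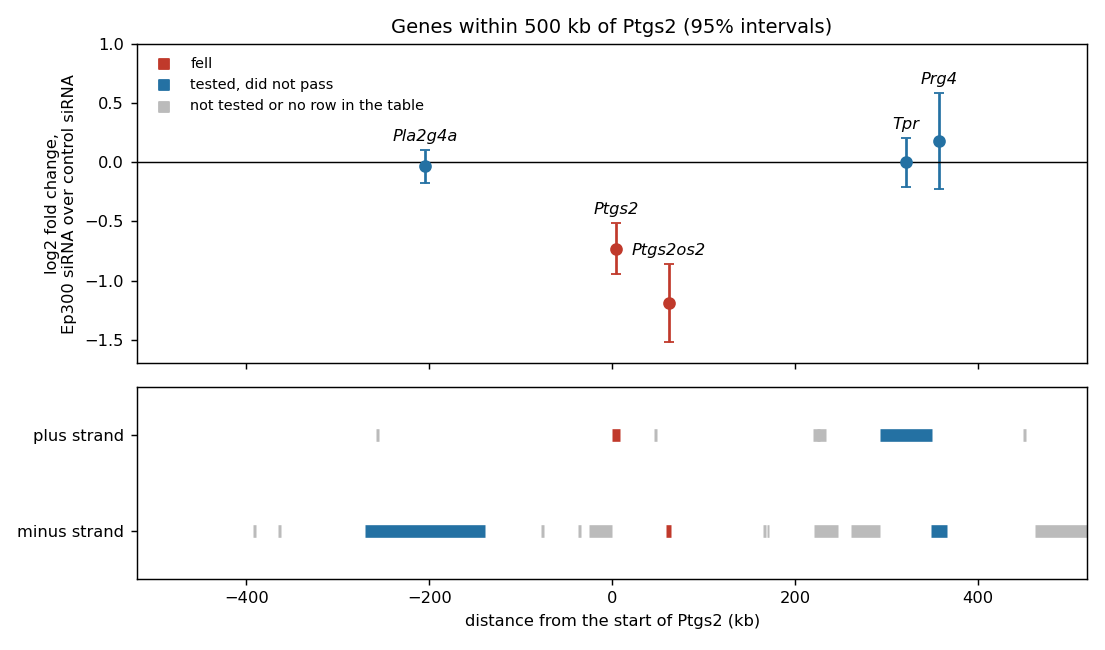
Log2 fold change with its 95% interval (upper panel) of the tested genes within 500 kb of Ptgs2, placed at each gene's middle, and the extents of all annotated genes there on both strands (lower panel), by distance from the start of Ptgs2 in kb. Ptgs2 at −0.73 and Ptgs2os2 at −1.19 lie below 0, while the intervals of Pla2g4a, Tpr and Prg4 include 0.

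Across the whole table, the genes whose levels ran most like those of Ptgs2 over the 6 libraries were Ado, Havcr2 and Tgfbr1. Likeness was measured as the root mean square difference of mean-centred log2 CPM among 10339 other genes with a mean of at least 5 CPM, and was 0.0384, 0.0413 and 0.0647 for these 3. Ado is a cysteamine dioxygenase, Havcr2 the inhibitory receptor TIM-3 and Tgfbr1 a receptor of TGF-beta. For Ptgs2os2 the nearest were Cct6a (0.114), Kntc1 (0.147) and Car2 (0.153), a chaperonin subunit, a kinetochore protein and a carbonic anhydrase. Their log2 fold changes were −0.69, −0.69, −0.72, −1.21, −0.95 and −1.04 in that order, a direction that the choice by likeness to genes that fell had already fixed.

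No prostaglandin E synthase passed the test. Ptges encodes the microsomal, inducible enzyme that is usually coupled to Ptgs2. It had 3.14, 3.49 and 2.94 CPM across the Ep300 siRNA libraries, against 3.43, 2.48 and 2.57 CPM in the control siRNA libraries. The groups overlap, with control replicate 1 as high as the Ep300 siRNA libraries, and the log2 fold change of 0.16 ± 0.17 (SE; 95% interval −0.22 to 0.55; edgeR adjusted p = 0.638) has an interval wholly above that of Ptgs2. Without control siRNA replicate 1 it was 0.34, and leaving out any 1 of the other libraries gave 0.09 to 0.22, with no adjusted p under the threshold. Ptges2, a second membrane-associated synthase, had 3.24, 3.52 and 3.16 CPM after Ep300 siRNA and 4.17, 3.79 and 3.44 CPM after control siRNA, with 1 pair of libraries in reversed order (log2 fold change −0.20 ± 0.14, SE; 95% interval −0.52 to 0.11; edgeR adjusted p = 0.453). It was −0.13 without control siRNA replicate 1. The ratio of Ptges to Ptges2 per kb was 1.32, 1.35 and 1.27 across the Ep300 siRNA libraries, against 1.12, 0.893 and 1.02 in the control siRNA libraries. It was higher in every Ep300 siRNA library than in any control, by 0.38 on the log2 scale (two-sided exact permutation p = 0.10, the smallest possible; adjusted p = 0.40 over the 8 pairs).

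Ptges3 encodes p23, a cochaperone of HSP90 that also has prostaglandin E synthase activity. It had 123.4, 119.8 and 128.5 CPM across the Ep300 siRNA libraries, against 127.9, 119.6 and 120.2 CPM in the control siRNA libraries. Its log2 fold change came to 0.02 ± 0.06 (SE; 95% interval −0.11 to 0.14; edgeR adjusted p = 0.916). A processed pseudogene copy of Ptges3 is annotated in GENCODE M21, so some of its reads could map to both. Tbxas1, thromboxane A synthase, had 2.49, 3.31 and 2.78 CPM across the Ep300 siRNA libraries, against 2.61, 2.79 and 3.83 CPM in the control siRNA libraries. The groups overlap (log2 fold change −0.10 ± 0.19, SE; 95% interval −0.51 to 0.32; edgeR adjusted p = 0.822).

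Among the leukotriene genes, Alox5 came closest to the threshold. This gene, which encodes 5-lipoxygenase (chromosome 6, 116410077 to 116461178, minus strand), had 53.1, 46.3 and 60.8 CPM across the Ep300 siRNA libraries, against 64.5, 65.7 and 66.8 CPM in the control siRNA libraries. All 3 Ep300 siRNA libraries lay below the controls, but they varied far more than the controls did. Means were 53.4 ± 7.28 CPM after Ep300 siRNA and 65.7 ± 1.18 CPM after control siRNA (SD, n = 3 each). The log2 fold change of −0.30 ± 0.09 (SE; 95% interval −0.49 to −0.11) did not pass edgeR's test (adjusted p = 0.0634), and it did pass without Ep300 siRNA replicate 3 (−0.40, edgeR adjusted p = 0.0206), with DESeq2 (adjusted p = 0.0262), with library sizes alone (edgeR adjusted p = 0.0469) and with no filter on low counts (edgeR adjusted p = 0.00208). Without Ep300 siRNA replicate 2, its lowest library, it was −0.20 (edgeR adjusted p = 0.182). Of 16 alternative fits of Alox5, 11 did not pass, limma-voom (adjusted p = 0.0616) and RLE scaling (edgeR adjusted p = 0.0687) among them. The other pass came with a replicate block (edgeR adjusted p = 0.0249), although replicate numbers were not taken as pairs.

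Alox5ap, the membrane protein that presents arachidonic acid to 5-lipoxygenase, had 149.4, 137.7 and 154.4 CPM across the Ep300 siRNA libraries, against 164.4, 164.3 and 143.8 CPM in the control siRNA libraries. The ranges overlap and the gene did not pass (log2 fold change −0.10 ± 0.07, SE; 95% interval −0.26 to 0.06; edgeR adjusted p = 0.471). Ltc4s, leukotriene C4 synthase, was low, with 2.66, 1.59 and 2.37 CPM across the Ep300 siRNA libraries, against 3.86, 2.56 and 2.76 CPM in the control siRNA libraries. Only Ep300 siRNA replicate 1 reached into the control range. Its log2 fold change of −0.49 ± 0.23 (SE; 95% interval −0.98 to 0.01; edgeR adjusted p = 0.234) has an interval wide enough to hold both no change and the fall of Ptgs2, and rests on 55 to 179 counts per library. Without control siRNA replicate 1 it was −0.27, without Ep300 siRNA replicate 2 −0.29, and it ran down to −0.62 without Ep300 siRNA replicate 1, with no adjusted p under the threshold. Alox5ap and Ltc4s share 189 and 268 exonic bases with the opposite-strand loci Gm19719 and Gm26542, so the same limit on assigning reads holds for them as for Ptgs1. Tbxas1 shares 144 with Gm42962, which had no count in the Ep300 siRNA libraries and at most 3 in a control siRNA library.

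Levels of different genes can be set side by side only per transcript length, here as CPM per kb of the principal transcript. On that scale Alox5ap was the highest of the 10, at 117.6 ± 6.86 after Ep300 siRNA and 125.9 ± 9.51 after control siRNA (SD, n = 3 each), followed by Ptges3 at 61.9 ± 2.19 and 61.3 ± 2.31 and Alox5 at 18.9 ± 2.58 and 23.3 ± 0.419 for the same groups. These 3 were separated from each other and from the rest in every library. A middle group followed in both conditions. Ltc4s averaged 3.40 CPM per kb after Ep300 siRNA and 4.72 after control siRNA, Ptgs1 3.08 and 5.15, Ptgs2os2 1.99 and 4.59, and Ptgs2 1.98 and 3.28. Within the control siRNA libraries Ptgs1, Ltc4s and Ptgs2os2 overlapped, with Ptgs2 below all of them. Within the Ep300 siRNA libraries Ptgs1 and Ltc4s overlapped, as did Ptgs2os2 and Ptgs2, and Ptgs2os2 also overlapped Tbxas1, which was at 1.44 ± 0.211 after Ep300 siRNA and 1.55 ± 0.330 after control siRNA. Ptges and Ptges2 were lowest, at 0.874 ± 0.076 and 0.664 ± 0.038 after Ep300 siRNA and 0.775 ± 0.144 and 0.763 ± 0.0724 after control siRNA, and could be ordered only in the Ep300 siRNA libraries.

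**Figure D4:**
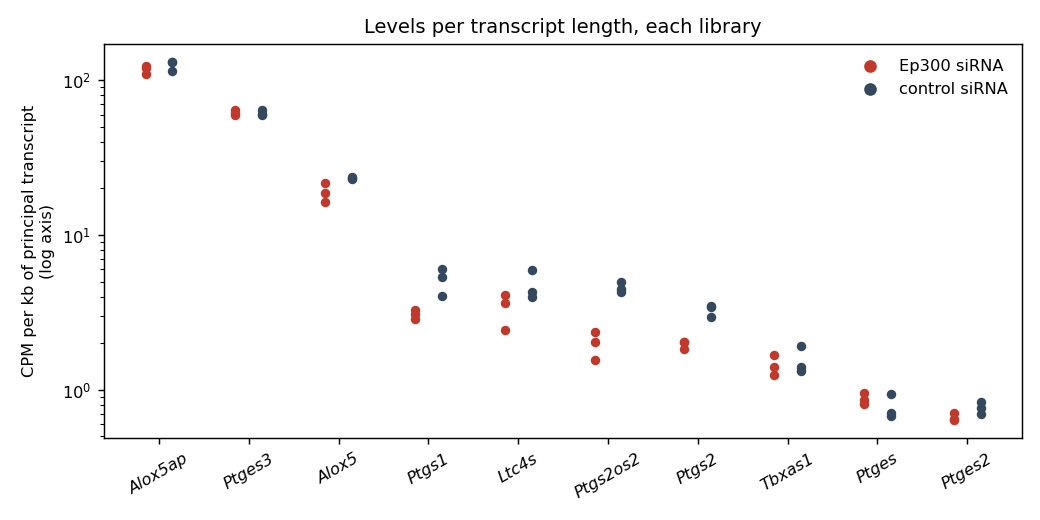
CPM per kb of principal transcript (log axis) of the 10 genes in each Ep300 siRNA library (red, left) and each control siRNA library (dark, right), ordered by their control mean. Alox5ap, Ptges3 and Alox5 stand above the others, and the step from Alox5 to the next gene is the widest.

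The rest of the pathway was examined through lists of genes for each step, described by counts and medians. The counts stand against 6.78% of all genes tested passing, 4.02% falling and 2.76% rising. Of 25 genes that release or recycle arachidonic acid, 22 could be tested, of which 1 rose, 1 fell and 20 did not pass (median log2 fold change 0.02). Pla2g15, the lysosomal phospholipase A2, rose, with 29.7 ± 1.99 CPM after Ep300 siRNA and 24.0 ± 1.94 CPM after control siRNA (SD, n = 3 each; log2 fold change 0.31 ± 0.08, SE; edgeR adjusted p = 0.0455). Its call was lost with library sizes alone (adjusted p = 0.0646), by limma-voom (adjusted p = 0.0514) and without any one library except control siRNA replicate 1 (adjusted p up to 0.137). Daglb, a diacylglycerol lipase of the endocannabinoid route to arachidonic acid, fell, with 48.9 ± 1.76 CPM after Ep300 siRNA and 59.8 ± 2.57 CPM after control siRNA (log2 fold change −0.29 ± 0.06, SE; edgeR adjusted p = 0.0161). That call was lost without replicate 1 or 2 of the Ep300 siRNA group or replicate 2 or 3 of the control siRNA group (adjusted p up to 0.088).

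Of 19 other terminal synthases, lipoxygenases and leukotriene-processing genes, 9 could be tested. With 6.78% of all genes tested passing, none of these 9 passed edgeR's adjusted threshold (1 at an unadjusted p under 0.05, median −0.06). By DESeq2, which gave an adjusted p for 6 of them, and by limma-voom none passed. Hpgds, the haematopoietic prostaglandin D synthase, was higher per length than any of the 3 prostaglandin E synthases, at 90.9 ± 8.91 CPM per kb after Ep300 siRNA and 89.1 ± 4.91 after control siRNA (SD, n = 3 each). In CPM it was at 294.3, 351.3 and 301.9 across the Ep300 siRNA libraries, against 325.4, 311.9 and 291.5 in the control siRNA libraries, and the groups overlap (log2 fold change 0.03, 95% interval −0.14 to 0.20; edgeR adjusted p = 0.874). Lta4h, which makes leukotriene B4, was at 17.1 ± 1.47 CPM per kb after Ep300 siRNA and 17.7 ± 0.988 after control siRNA, above Ltc4s in every library, with a log2 fold change of −0.06 (95% interval −0.23 to 0.11; edgeR adjusted p = 0.726). Mgst2, a microsomal transferase that can also form leukotriene C4, had the smallest p of the list (20.1 ± 2.19 CPM after Ep300 siRNA and 24.3 ± 1.74 CPM after control siRNA; log2 fold change −0.27 ± 0.09, SE; edgeR adjusted p = 0.102). It passed with no filter on low counts (edgeR adjusted p = 0.0398).

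Of 20 genes listed under breakdown or transport of prostanoids and leukotrienes, 13 could be tested, of which 2 fell and 11 did not pass (median −0.06). Akr1b3, 1 of the 2, was placed in this list and was not counted among the terminal synthases. The lack of calls among those synthases therefore does not cover it and depends on this placement. Slco4a1, an organic anion transporter, fell to 76.3 ± 7.58 CPM in Ep300 siRNA libraries, against 102.8 ± 3.58 CPM in control siRNA libraries (SD, n = 3 each; log2 fold change −0.43 ± 0.07, SE; edgeR adjusted p = 0.00612), and without Ep300 siRNA replicate 1 it was at −0.34 (edgeR adjusted p = 0.0157). Akr1b3, aldose reductase, fell to 120.3 ± 3.42 CPM in Ep300 siRNA libraries, against 152.5 ± 18.4 CPM in control siRNA libraries (log2 fold change −0.34 ± 0.08, SE; edgeR adjusted p = 0.0267), which no longer passed when replicate 2 or 3 of the Ep300 siRNA group or replicate 2 of the control siRNA group was left out (adjusted p up to 0.097). The exporters Abcc4 of prostanoids and Abcc1 of leukotriene C4 were at log2 fold changes of 0.02 and 0.01 and did not pass.

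Of 19 receptor genes, 10 could be tested. With 6.78% of all genes tested passing, a list this small may hold none, and none of the 10 passed. Likewise, 0 were at an unadjusted p under 0.05 by edgeR, DESeq2 or limma-voom (median log2 fold change −0.06). Gpr17, related to the cysteinyl leukotriene receptors, had the smallest p (1.20 ± 0.196 CPM after Ep300 siRNA and 1.58 ± 0.101 CPM after control siRNA; edgeR adjusted p = 0.336). The prostaglandin E2 receptor Ptger4 was at 13.5 ± 1.01 CPM after Ep300 siRNA and 14.1 ± 1.39 CPM after control siRNA, and the prostacyclin receptor Ptgir at 30.5 ± 2.54 and 31.9 ± 3.64 CPM for the same groups (SD, n = 3 each).

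Of 14 transcription regulators known at the Ptgs2 promoter, 3 fell, none rose and 11 did not pass (median −0.03). Over all genes tested 4.02% fell and 2.76% rose. Ep300 itself was 1 of the 3. The AP-1 subunits Jun, at 97.8 ± 6.07 CPM after Ep300 siRNA and 131.8 ± 3.29 CPM after control siRNA, and Fos, at 17.2 ± 2.73 and 25.2 ± 2.03 CPM for the same groups, were the others (edgeR adjusted p = 0.00257 and 0.0135). Both also passed without Ep300 siRNA replicate 1, at −0.37 and −0.41 (edgeR adjusted p = 0.0105 and 0.0242). Without control siRNA replicate 3 Fos did not pass (adjusted p = 0.0533). The NF-kB subunits Nfkb1 and Rela were at log2 fold changes of 0.09 and 0.07 and did not pass. Nfatc1 and Atf1 were at −0.25 and −0.28, each with every Ep300 siRNA library below every control (edgeR adjusted p = 0.0559 and 0.1). By DESeq2 4 of the 14 passed, and by limma-voom 3. Cebpb, a C/EBP factor, had 16.5, 9.37 and 6.58 CPM across the Ep300 siRNA libraries, against 7.08, 6.97 and 8.69 CPM in the control siRNA libraries, with Ep300 siRNA replicate 1 above the rest (edgeR adjusted p = 0.281).

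Of 11 RNA-binding proteins known to act on Ptgs2 mRNA or AU-rich elements like those it carries, 1 fell and 10 did not pass (median −0.10). Zfp36l2, which promotes the decay of such mRNAs, fell to 83.8 ± 2.63 CPM in Ep300 siRNA libraries, against 110.9 ± 3.59 CPM in control siRNA libraries (SD, n = 3 each; log2 fold change −0.40 ± 0.06, SE; edgeR adjusted p = 0.00235). It also passed without Ep300 siRNA replicate 1 (−0.37, edgeR adjusted p = 0.0105).

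**Figure D5:**
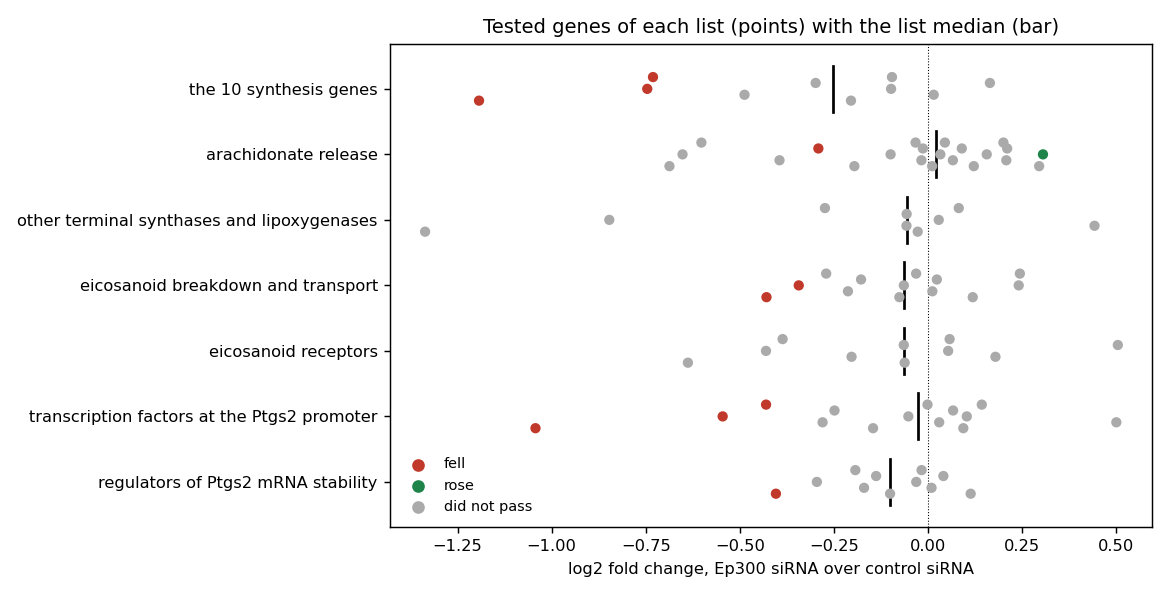
Log2 fold change of Ep300 siRNA over control siRNA (horizontal axis) for each tested gene of the 10 synthesis genes and of 6 lists of related genes, coloured by whether it fell (red), rose (green) or did not pass (grey), with bars for the medians. The median of the synthesis genes is −0.25 and those of the lists lie between −0.10 and 0.02. The genes and lists were chosen with earlier results of these data known, so the medians are descriptive.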

How the data were processed

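Stranded mRNA libraries of 6 RAW264.7 samples were sequenced. The authors deposited 1 table of raw counts per gene symbol, whose column names give the samples. The build was GRCm38 and the tools listed are edgeR 3.12.1, featureCounts, STAR 2.5.3a and fastp 0.23.4, per the submitters' processing notes. Annotation, strand and multimapping settings are not given in the sources read here. Among counts of 1 to 4, from 79.8% to 80.9% per library were even, so halved counts were an alternative. Why most low counts were even was not tested. The raw counts given here may therefore exceed the number of independent fragments.

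All genes were fitted with edgeR 4.0.16 in R 4.3.3: filterByExpr by group, TMM scaling and the two-sided quasi-likelihood test of Ep300 siRNA over control siRNA with no covariate, adjusted by Benjamini-Hochberg over 15741 genes at 0.05. CPM uses TMM-scaled total counts. CPM per kb divides by the APPRIS principal transcript in GENCODE M21, the longest where several qualify, although reads of other isoforms are counted too. Promoter windows came from RefSeq. Ratios of 8 gene pairs were compared by exact permutation. DESeq2 1.42.0 and limma-voom (limma 3.58.1) were alternatives.

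The 10 genes and the lists were chosen with earlier results of these data known. Named besides the 10 are, per list, up to 4 genes past the threshold in each direction or else the smallest p, all genes within 500 kb of Ptgs2, and the 3 nearest in pattern to Ptgs2 and to Ptgs2os2. Others are given as background values. Same-numbered libraries of the groups did not deviate together (r of 0.143, 0.0231 and −0.0523), so numbers were not taken as pairs. PCR copies are not independent molecules, so depth bounds cover counting error only.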

Additional observations from a re-analysis of the deposited data

How the results depend on the processing

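Ptgs1, Ptgs2 and Ptgs2os2 stayed below 0 and past the threshold in all 16 alternative fits, which were other scalings and filters, a replicate block, DESeq2, limma-voom, halved counts, no mitochondrial or Gm42418 rows, and each library left out. Their log2 fold changes ranged from −0.89 to −0.61 for Ptgs1 (adjusted p up to 0.0457), from −0.80 to −0.68 for Ptgs2 and from −1.34 to −1.04 for Ptgs2os2. Of the 10 genes, 3 or 4 passed in every fit and none rose. In the fits with 4, the other was Alox5, at −0.33 with library sizes alone, −0.31 with no filter on low counts, −0.31 with the replicate block (adjusted p = 0.0249), −0.29 by DESeq2 and −0.40 without Ep300 siRNA replicate 3. It ran from −0.40 to −0.20 with 1 library left out. With the block 1357 of all genes tested passed, and no other call among the 10 changed. Ep300 siRNA replicates 2 and 3 did not correlate best with their own number.

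Some signs changed, none of them of a value past the threshold. Ptges3 was at −0.0187 with library sizes alone and between −0.0113 and 0.0514 with 1 library left out. Tbxas1 ran from −0.214 to 0.0942 with 1 library left out, Pla2g4a from −0.0643 to 0.0213 and Tpr from −0.103 to 0.114. Tpr was at 0.00464 with RLE scaling and 0.00464 by DESeq2. The log2 ratio of Ptgs2 to Ptgs1 ran from −0.105 to 0.0864, and that of Ltc4s to Alox5, at −0.175 with all libraries, from −0.327 to 0.0172. The ratio of Ptgs2os2 to Ptgs2 ran from −0.60 to −0.36.

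Of all genes tested, 1721 passed with no filter on low counts, 369 at an adjusted p under 0.01, 1407 by DESeq2 and from 490 (without control siRNA replicate 2) to 1054 (without control siRNA replicate 1) with 1 library left out, against 1068. Leaving out any library other than control siRNA replicate 1 moved that count by over 1.5 times. With library sizes alone 28.6% of calls were rises, and with TMM scaling 40.7%. Ltc4s, Tbxas1, Ptges and Ptges2 rest on at most 193 counts in any library, which limits the precision of their fold changes.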

Other observations

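Per kb of transcript, the opposite-strand locus Gm19719 had a lower level than Alox5ap in every library. It averaged 21.3 CPM per kb after Ep300 siRNA and 23.1 after control siRNA, against 117.6 and 125.9 for Alox5ap. In CPM, Gm19719 had 92.8, 83.0 and 94.9 across the Ep300 siRNA libraries, against 105.1, 99.9 and 88.1 in the control siRNA libraries. Gm26542, opposite Ltc4s, had 1.87, 1.47 and 1.65 CPM after Ep300 siRNA and 2.63, 1.76 and 1.61 CPM after control siRNA. For Gm43621, opposite Ptgs1, the log2 fold change of −0.52 had the sign of that of Ptgs1. Whether these counts are separate transcripts or reads of the genes they overlap was not tested, since it needs the strand of each read.

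Some genes of the lists, named here after their values were seen, were at or near 0. Ptgfr, Akr1c18 and Alox12e had no count in any library. Ptgis, the prostacyclin synthase, Tbxa2r, the thromboxane receptor, and the leukotriene B4 receptors Ltb4r1 and Ltb4r2 averaged at most 0.0419 CPM in either group, below the 0.0647 to 0.102 CPM that 3 counts give in a library.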
